A study of Mus musculus with 4 samples.

Results

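Cytosolic ribosomal protein genes were picked out of an ATAC-seq gene table of mouse subcutaneous white fat by name, as the genes whose symbol begins with Rpl or Rps and a number, with Rplp and a number, or with Rpsa, with the S6 kinase genes (Rps6k) left out. The rule used no measured value and found 78 of 11993 genes. ATAC-seq uses the Tn5 transposase to cut and tag open DNA, and the values are peak heights, that is, tag coverage at the peak, scaled per library and, where a gene had several regions, averaged. The 4 libraries came from nuclei of frozen, ground whole fat: 2 male and 2 female samples, all labelled WT, with no age, strain or treatment given in the labels. The question of the design is how open chromatin in this depot differs between the sexes.

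The 78 genes were of unequal kind. There were 64 genes of canonical ribosomal proteins, 38 of the large and 26 of the small subunit. The others were 5 paralogs (Rpl3l, Rpl7l1, Rpl22l1, Rpl36al and Rps27l), 8 annotated pseudogenes, and Rps19bp1, which encodes a protein that binds ribosomal protein S19 and is not itself part of the ribosome. Of the 79 canonical names that were looked for, 66 were in the table, 2 of them under names outside the rule. The 13 others, among them Rpl3 and Rps29, were outside the table and have no heights. For 6 of the 13 a RefSeq start was found, and 0 of these 6 had an open region within 1000 bp of it.

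Ribosomal proteins and ribosomal RNA make up the large and small subunits of the cytosolic ribosome, which translates mRNA in every cell type of fat. The genes of these proteins have short, strong promoters. Transcription often begins at a C within a run of pyrimidines, which becomes the terminal oligopyrimidine (TOP) motif through which mTOR signalling controls translation of these mRNAs. Many of the genes also carry small nucleolar RNAs (snoRNAs), which guide the modification of ribosomal RNA, in their introns. An open promoter does not by itself give the amount of mRNA.

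Nothing in the labels ties the libraries to separate animals, so p-values measure only the spread between these samples, which may be technical. The depth behind a height is unknown, since read totals were not used here. In whole tissue, fewer cells with an open site and less opening per cell cannot be told apart. Of 9 adipocyte marker genes, 5 were in the table (Pparg, Cidec, Lipe, Retn and Cfd), with a median height of 14.8 and 12.5 in the males, against 28.0 and 29.6 in the females. Their median difference was -1.05 on the log2 scale, against -0.63 over all genes. None of the 5 passed the test, against 0.592% of all genes called lower in males. Of these 5, Lipe had a region within 1000 bp of its start, and the nearest peaks of the others lay at -9722 bp (Retn), -6309 bp (Cfd), 16363 bp (Cidec) and 101883 bp (Pparg) from their own starts, so these heights are not those of the marker genes' promoters. The lists of other cell types were barely covered: 2 of 4 genes of endothelium, 1 of 4 of leukocytes, 1 of 4 of mammary epithelium, 1 of 3 of muscle, and 0 of skin and progenitors. The covered genes had median differences of -0.73 (endothelium), -0.88 (leukocytes), -1.20 (mammary epithelium) and -1.20 (muscle). The part of cell makeup in the results below was not tested.

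Most canonical ribosomal protein genes of the table had an open region at their own start. A region within 1000 bp of the annotated start was linked to 57 of 64 canonical genes (89.1%), against 69.7% of all 11993 genes. The table lists only genes linked to a called peak, and the 13 canonical names outside it are not counted in this share. The nearest peak of these 57 genes lay at a median of -47 bp, just upstream of the start, with quartiles at -86 and -5 bp. For the 8301 other genes with a region at their start the median was -35 bp, with quartiles at -95 and 5 bp. Within 150 bp of the start lay 86.0% of the canonical genes' peaks, against 80.4% for those other genes. The plot of distances from the start shows both distributions.

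**Figure D1:**
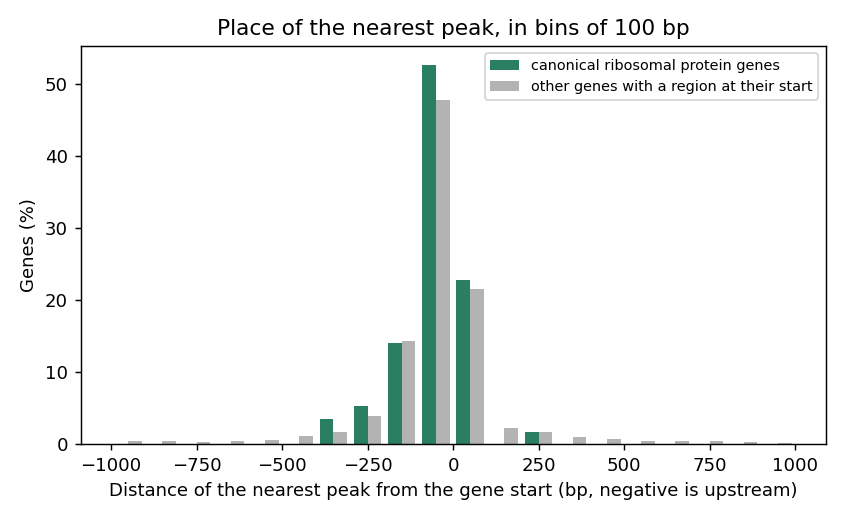
Share of genes (%, y axis) by the distance of the nearest peak from the gene start (bp, x axis, bins of 100 bp), for the 57 canonical ribosomal protein genes with a region at their start (green) and the 8301 other such genes (grey). Both sets pile up within 100 bp upstream of the start, and none of the nearest peaks of these 57 genes lies beyond 400 bp upstream.

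The regions linked to the 78 genes were often shared with other genes, because the table links a region to every gene near it. In all, 70 of the 78 genes shared a region with another gene, against 8048 of all 11993 genes. For 68 of the 78 every region was shared. These counts include the 16 genes without a region at their own start. A snoRNA gene was linked to the same region in 19 canonical genes, such as Rpl23a, which shared its regions with Snord42a, Snord42b and Snord4a. Of the 57 canonical genes with a region at their start, 7 had a neighbour starting head-to-head within 1000 bp: Rpl35a with Iqcg, Rps2 with Snhg9, Rps28 with Ndufa7, Rps18 with Vps52, Rpl7a with Med22, Rpl9 with Lias and Rps25 with Trappc4. The height at such a region belongs to both genes alike.

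None of the 8 pseudogenes had a region at its own start. Their nearest peaks lay between 2061 and 9769 bp away, and for 7 of the 8 the region was also linked to another gene whose start was within 73 bp of the region's middle. Rpl35a-ps7, for example, had the highest mean height of all 78 genes: 48.8 and 40.4 in the males, against 83 and 68.2 in the females. The start closest to the middle of that region, 61 bp away, was that of Pdia4, which encodes a protein disulfide isomerase of the endoplasmic reticulum. Rps15a-ps4 carried the height of the region at Ythdf2, Rps19-ps6 that at Tecpr2 and Rps19-ps4 that at Lars. The values listed for these 7 pseudogenes are thus heights at starts of other genes. Among the 7 canonical genes without a region at their start, the middle of the region of Rpl13a lay 40 bp from the start of Flt3l, that of Rplp2 67 bp from the start of Pnpla2, which encodes the fat cell lipase ATGL, and that of Rpl17 32 bp from the start of BC031181. For Rpl36 it lay at the start of 2410015M20Rik and for Rpl4 it lay 124 bp from that of Snapc5. For Rpl18 the closest start, that of Sphk2, was 2666 bp away, and Rps21 itself was the closest gene to its region, at 6062 bp.

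The promoter sequences of 9 canonical genes are shown because they span the range of heights and motifs described here. The linked region covered the whole window in 7 of them and part of it in Rpl39, while that of Rpl19 lay just downstream of its window. They are the 100 bases before to 10 bases after the RefSeq start in GRCm38.p6 (mm10), written 5′ to 3′ on the strand of the gene. Capitals mark the letters of the motifs searched for, on either strand. The windows are chr1:39367751-39367860 (plus strand) for Rpl31, chr15:5116513-5116622 (plus strand) for Rpl37, chr5:115559367-115559476 (plus strand) for Rplp0, chr4:86857358-86857467 (minus strand) for Rps6, chr3:86142659-86142768 (minus strand) for Rps3a1, chr3:90213639-90213748 (minus strand) for Rps27, chr11:68901466-68901575 (plus strand) for Rpl26, chr11:98026610-98026719 (plus strand) for Rpl19 and chrX:37085213-37085322 (minus strand) for Rpl39. Rpl31, Rpl37 and Rplp0 had tall regions, Rpl39 had a low one, and Rpl26 and Rpl19 were high in a single male library.
Rpl31: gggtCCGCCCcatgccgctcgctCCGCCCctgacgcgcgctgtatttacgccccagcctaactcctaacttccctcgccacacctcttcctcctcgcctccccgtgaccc
Rpl37: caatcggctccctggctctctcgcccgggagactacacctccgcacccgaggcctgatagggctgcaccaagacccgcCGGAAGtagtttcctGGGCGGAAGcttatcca
Rplp0: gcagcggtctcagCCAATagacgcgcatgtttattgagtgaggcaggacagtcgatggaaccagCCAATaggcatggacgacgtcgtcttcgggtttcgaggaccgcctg
Rps6: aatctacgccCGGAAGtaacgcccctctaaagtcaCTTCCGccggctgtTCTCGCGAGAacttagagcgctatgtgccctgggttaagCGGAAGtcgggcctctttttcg
Rps3a1: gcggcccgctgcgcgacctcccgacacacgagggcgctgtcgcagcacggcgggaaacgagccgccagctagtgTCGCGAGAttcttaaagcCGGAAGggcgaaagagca
Rps27: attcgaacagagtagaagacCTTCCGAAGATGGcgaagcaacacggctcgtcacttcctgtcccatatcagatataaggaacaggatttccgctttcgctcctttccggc
Rpl26: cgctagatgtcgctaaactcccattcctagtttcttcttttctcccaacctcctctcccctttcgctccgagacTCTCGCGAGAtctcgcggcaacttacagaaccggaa
Rpl19: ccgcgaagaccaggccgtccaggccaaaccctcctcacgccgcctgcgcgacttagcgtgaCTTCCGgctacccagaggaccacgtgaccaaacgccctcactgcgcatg
Rpl39: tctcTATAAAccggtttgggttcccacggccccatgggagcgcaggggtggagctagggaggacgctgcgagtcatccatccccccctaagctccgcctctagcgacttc
In Rps6, which encodes the small subunit protein phosphorylated by S6 kinase, the window holds 3 copies of the letters of the ETS family site and a TCTCGCGAGA palindrome. In Rpl31 it holds 2 copies of the SP1 family letters, and in Rplp0, which encodes the stalk protein P0, 2 NF-Y boxes. In Rps27 the ETS and YY1 letters adjoin each other, and in Rpl37 an ETS and an SP1 match overlap in GGGCGGAAG.

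RefSeq promoters, 250 bases before to 50 bases after the start, were matched for 51 of the 64 canonical genes. The letters CGGAAG, the core of sites of ETS family factors, occurred on either strand in 68.6% of these promoters, against 38.0% of the 6740 promoters of genes with a region at their start and 17.3% of all 27025 promoters. TCTCGCGA, within a palindrome known to be bound by ZBTB33 and BANP, occurred in 15.7%, against 3.09% and 1.10%. A start within an unbroken run of at least 4 pyrimidines that began with C was found in 21.6%, against 8.68% and 8.23%. This rule takes the RefSeq start as exact to the base. It leaves out a start at a C in a run that begins with T, as in Rpl28. The share is therefore not the share of TOP mRNAs among these genes. AAGATGG, letters of YY1 sites, occurred in 13.7%, against 8.0% and 6.48%. Of the 51 genes, 46 had a region at their own start. In these 46 the shares were 69.6% (ETS), 17.4% (TCTCGCGA), 21.7% (pyrimidine start) and 13.0% (YY1).

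The SP1, NF-Y and NRF1 letters were less frequent than in the promoters of genes with a region at their start. GGGCGG, the SP1 family box, occurred in 58.8% of the ribosomal protein promoters, against 72.1% of promoters with a region at the start and 36% of all. CCAAT, the NF-Y box, occurred in 31.4%, against 42.6% and 37.8%. GCGCATGC, the NRF1 palindrome, was found in 1 promoter (1.96%), against 6.69% and 2.81%. In the 46 canonical genes with a region at their start the shares were 56.5% (SP1), 30.4% (NF-Y) and 2.17% (NRF1). TATAAA occurred in 9.80%, against 5.55% and 14.1%. In a shorter window, 150 bases before to 50 after the start, TATAAA occurred in 9.80%, against 2.98% and 9.37%, so its order against all promoters turned. The ETS letters then occurred in 54.9%, against 32.3% and 14.2%, and the SP1 letters in 49.0%, against 66.9% and 32.6%. All were searched on both strands, and matches to different motifs may overlap. These shares describe letters in a window and were given no test, and a match is not a bound site.

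**Figure D2:**
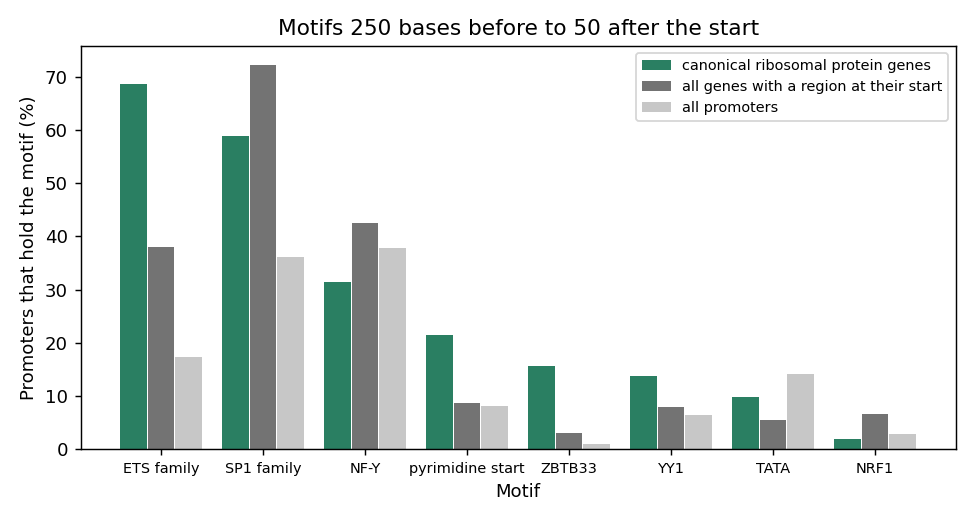
Share of promoters (%, y axis) that hold each motif (x axis) from 250 bases before to 50 bases after the start, for 51 canonical ribosomal protein genes (green), 6740 genes with a region at their start (dark grey) and 27025 promoters in all (light grey). ETS, pyrimidine start, ZBTB33 and YY1 letters stand highest in the ribosomal protein genes, and SP1, NF-Y and NRF1 letters stand highest in the genes with a region at their start.

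Heights with and without these motifs are given as a description for the 46 matched genes with a region at their start. The median of the mean height over libraries was 29.4 in the 32 genes with the ETS letters and 28.7 in the 14 without them. It was 31.5 in the 26 genes with the SP1 letters and 27.0 in the 20 without them, and 29.0 in the 8 genes with TCTCGCGA and 29.2 in the 38 without it. The median difference between the sexes on the log2 scale was -0.62 with the SP1 letters and -0.39 without them. With and without the ETS letters it was -0.62 and -0.50, for NF-Y -0.55 and -0.62, and for TCTCGCGA -0.47 and -0.60. The SP1 contrast was the widest of those listed here, and none was tested.

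The ribosomal protein genes had somewhat taller peaks than the median gene of the table in each library. Their median height was 26.3 in male 1 and 18.4 in male 2, against 43.5 in female 1 and 34.5 in female 2. The medians of all genes were 24.0 and 14.7 in the males and 38.0 and 30.2 in the females. On the log2(height + 9) scale the ribosomal protein genes stood above all genes by 0.15 ± 0.05 (SD, n = 4 libraries): 0.09 in male 1, 0.21 in male 2, 0.16 in female 1 and 0.15 in female 2. They were thus above the all-gene median in all 4 libraries, by the widest margin in male 2. With canonical genes alone the margin was 0.10. Set against other genes with a region at their start, the 57 canonical genes with one had a median height of 24.7 against 24.7 for those others in male 1 and 17.6 against 15.4 in male 2, and of 41.3 against 39.5 in female 1 and 32.9 against 31.2 in female 2. In male 1 that comparison thus left no margin. For 17 of the 57 genes the heights were averages over more than 1 region. The 40 genes with 1 region had medians of 24.7 and 19.5 in the males, against 40.5 and 33.3 in the females. The 17 had 24.7 and 15.4 in the males, against 43.5 and 31.6 in the females. The 8 pseudogenes, 7 of which carry heights at other genes' starts, had medians of 38.5 and 24.6 in the males, against 52.5 and 46.9 in the females.

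Over 55 of the canonical genes with a region at their start, heights spanned a wide range in each library. They ran between 8.48 and 47.4 in male 1 and between 5.51 and 52.1 in male 2, against 6 to 95 in female 1 and 9.86 to 64.1 in female 2. The tallest mean heights of these 55 were those of Rpl27, Rpl31 and Rplp0. Rpl27, of the large subunit, had 47.4 and 30.1 in the males, against 78 and 64.1 in the females. Rplp0, which forms the base of the stalk that recruits translation factors, had 47.4 and 32.3 in the males, against 58 and 54.3 in the females. In both Rpl27 and Rplp0 the 2 males lay below the 2 females, and a peak was called in all 4 libraries.

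Among the lowest mean heights were those of Rps21, Rpl23, Rpl39 and Rpl4. Rpl23, a large subunit protein that also binds MDM2, had 8.48 and 12.5 in the males, against 6 and 14.8 in the females. Rpl39, an X-linked gene of a very small protein at the exit tunnel, had 12 and 13.2 in the males, against 13 and 18.1 in the females. In both Rpl23 and Rpl39 the sexes overlapped, and a peak was called in 1 library each.

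**Figure D3:**
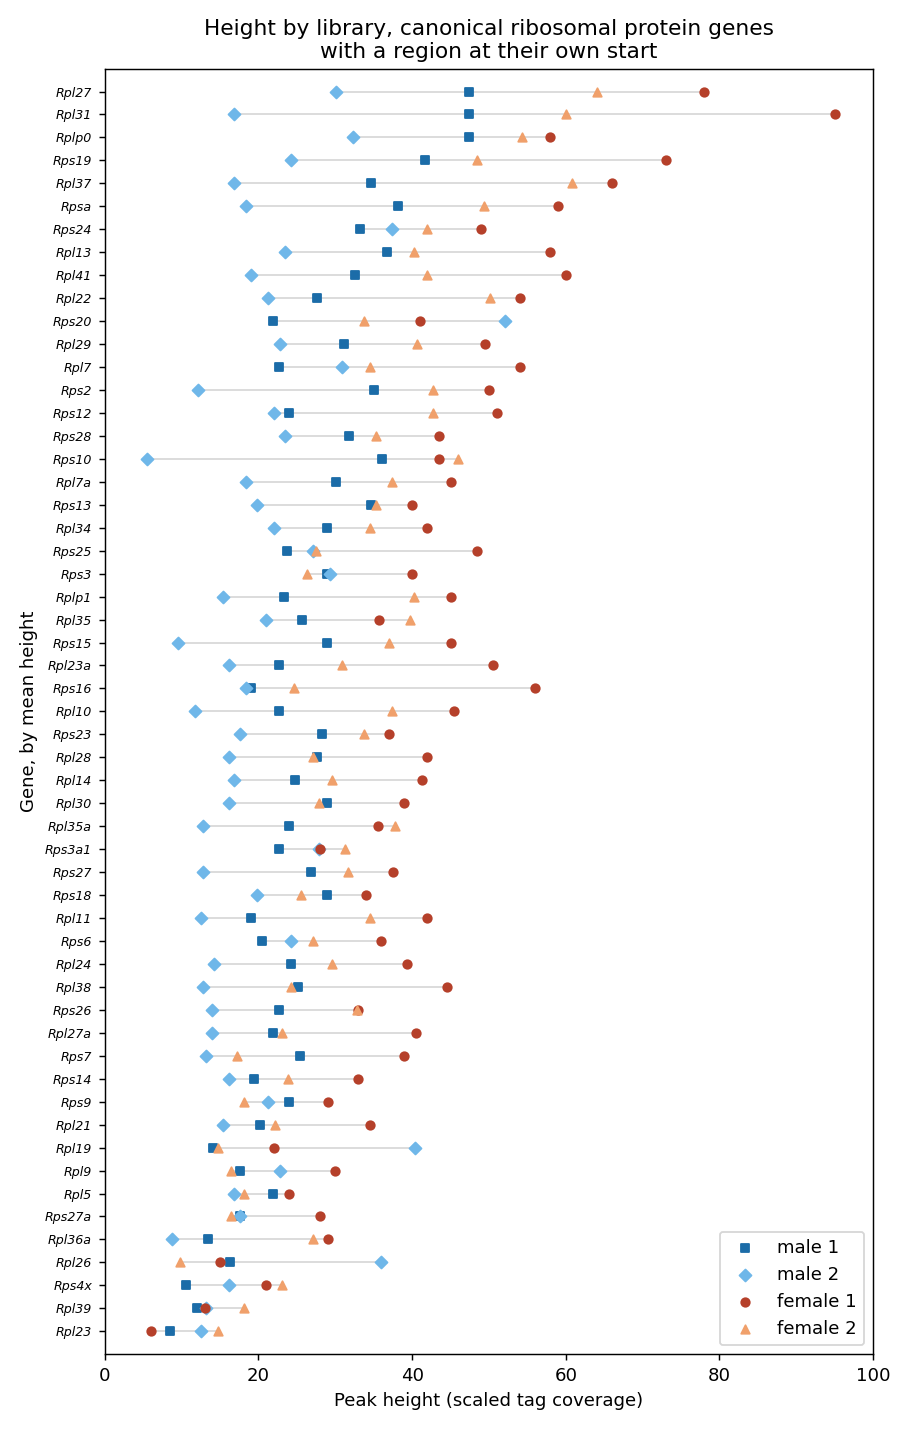
Peak height (scaled tag coverage, x axis) in each library for 55 of the 57 canonical ribosomal protein genes with a region at their start (y axis, by mean height), with males as blue squares and diamonds and females as red circles and orange triangles. Male 2 is the lowest library and female 1 the highest in most rows, while male 2 is highest in Rps20, Rpl19 and Rpl26.

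On the deposited scale ribosomal protein genes had lower heights in males than in females, as did the table as a whole, and none of the 78 was called. The mean height over the 78 genes was 24.2 ± 5.26 in males and 39.3 ± 6.74 in females (SD, n = 2 each), a difference of -15.1. In an exact two-sided permutation test over the 4 libraries p was 0.333, the smallest that 2 against 2 samples can give. Males had 0.615 times the female height over these genes and 0.574 times over all genes. On the log2 scale the median difference, male minus female, was -0.58 for the ribosomal protein genes and -0.63 for all genes, so the ribosomal protein genes stood 0.05 above the shift of the whole table. The sign depends on the scaling: with each library centred on its all-gene median the median difference was 0.042, and with quantile normalization 0.059. In the centred fit 0 genes were called, the smallest limma adjusted p was 0.609, and 9 of 78 (11.5%) had an unadjusted p under 0.05, against 8.02% of all genes.

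With limma at an adjusted p of 0.05, 0 of 78 genes were lower in males, against 0.592% of all genes, and 0 were higher, against 0% of all genes. At an unadjusted p under 0.05 there were 20 of 78 (25.6%), all lower in males, against 31.4% of all genes. The smallest adjusted p was 0.0941, of Rps19bp1, and among canonical genes 0.101, of Rpl31. Both males lay below both females in 56 of 78 genes (71.8%), against 76.4% of all genes. Both males lay above both females in 1 gene, Rpl26, against 0.35% of all genes, and the sexes overlapped in 21. Without male 1, 35 genes (44.9%) were called lower in the male 2 library, against 53.3% of all genes, and 2 (Rpl26 and Rpl19) higher, against 0.233% of all genes. Male 2 is then a lone sample that is assumed to vary as the females do. Without trend in limma's variance, 2 genes (Rpl31 and Rps19bp1) were called lower, against 3.47% of all genes.

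**Figure D4:**
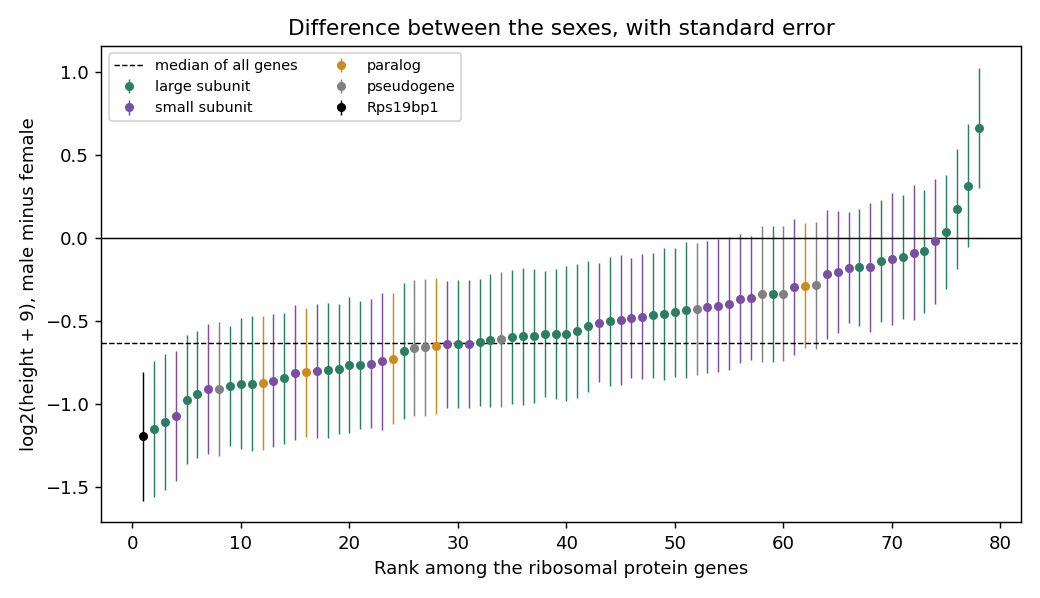
Difference between the sexes on the log2(height + 9) scale (male minus female, y axis) with its standard error from limma (bars), for the 78 genes by rank (x axis) and coloured by kind. The dashed line is the median of all genes, -0.63, and the differences run between -1.19 and 0.66 around it with 47 above and 31 below.

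The genes with the most negative differences were Rps19bp1, Rpl31, Rpl37, Rps10 and Rpl10. Rpl31, a large subunit protein near the exit tunnel, had 47.4 and 16.9 in the males, against 95 and 60.0 in the females. Both males lay below both females, and the log2 difference was -1.15 ± 0.41 (SE, limma adjusted p = 0.101). Measured from the all-gene median this was -0.52. Rpl37, also of the large subunit, had 34.6 and 16.9 in the males, against 66 and 60.8 in the females. Its sexes did not overlap either, at -1.11 ± 0.41 (SE, limma adjusted p = 0.108). Rps10, of the small subunit, had 36 in male 1 and 5.51 in male 2, against 43.5 and 46.0 in the females, with male 2 far below the other 3 libraries. Its difference was -1.07 ± 0.39 (SE, limma adjusted p = 0.106), and its heights were averages over 2 regions. Rps19bp1 had 22.6 and 8.81 in the males, against 56 and 36.2 in the females, a difference of -1.19.

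Rpl10, an X-linked gene of the large subunit, had 22.6 and 11.7 in the males, against 45.5 and 37.4 in the females, a difference of -0.97. These heights were averages over 2 regions. The other X-linked genes of the set were Rpl36a, Rpl39 and Rps4x. Over these 4 genes the median difference was -0.69, against -0.61 over all 256 genes of chromosome X, and none of the 4 had a peak in all 4 libraries, against 51 of the 256 genes of chromosome X (19.9%). Rps4x, of the small subunit, had 10.6 and 16.2 in the males, against 21 and 23 in the females, which did not overlap.

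The differences above 0 were those of Rpl26 (0.66), Rpl19 (0.32), Rpl4 (0.17) and Rpl23 (0.04), 4 of 78 or 5.13%, against 3.34% of all genes. Rpl26, a large subunit protein that also binds p53 mRNA, had 16.3 in male 1 and 36 in male 2, against 15 and 9.86 in the females. Male 1 was just above female 1, and male 2 was far above the other libraries, at 0.66 ± 0.36 (SE, limma adjusted p = 0.176). Measured from the all-gene median this was 1.29. Rpl19, also of the large subunit, had 14.1 in male 1 and 40.4 in male 2, against 22 and 14.8 in the females. Male 1 was the lowest and male 2 the highest, at 0.32 ± 0.37 (SE, limma adjusted p = 0.467). Male 2 was also on top in Rps20, chosen after its values were seen, with 21.9 in male 1 and 52.1 in male 2, against 41 and 33.7 in the females. Male 2 was the highest of the 4 libraries in these 3 genes (3.85%), against 2.68% of all genes.

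Genes known from disease or for roles outside the ribosome were found across this range. Rps19, the gene most often mutated in Diamond-Blackfan anaemia, had 41.7 and 24.2 in the males, against 73 and 48.5 in the females. Both males were below both females, at -0.74 ± 0.41 (SE, limma adjusted p = 0.179). Rpl11, which with Rpl5 binds MDM2 when ribosome assembly fails, had 19.1 and 12.5 in the males, against 42 and 34.5 in the females, a difference of -0.94. Rpl5 had 21.9 and 16.9 in the males, against 24 and 18.1 in the females, where male 1 lay between the females and the difference was -0.08. Rps6 had 20.5 and 24.2 in the males, against 36 and 27.1 in the females, without overlap, a difference of -0.36. Rps3, which also acts in DNA repair, had 29.0 and 29.4 in the males, against 40 and 26.3 in the females, and its sexes overlapped.

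Rplp1, a stalk protein that pairs with the product of Rplp2, had 23.3 and 15.4 in the males, against 45 and 40.3 in the females, a difference of -0.88 without overlap. Rpsa, a small subunit protein also known as the laminin receptor, had 38.2 and 18.4 in the males, against 59 and 49.3 in the females, a difference of -0.81 without overlap. Of the paralogs, Rpl3l, the form of Rpl3 found in heart and skeletal muscle, had 36.5 and 14.7 in the males, against 52.7 and 49.6 in the females. These heights were averages over 3 regions, and the middle of the nearest lay 34 bp from the start of Ndufb10. Rps27l, a target gene of p53, had 39.6 and 22.8 in the males, against 59 and 46.9 in the females. Rpl22l1 had 22.6 and 16.9 in the males, against 36 and 18.1 in the females, and it was the 1 paralog whose sexes overlapped.

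By subunit, the median difference was -0.58 over the 38 large subunit genes and -0.44 over the 26 small subunit genes. It was -0.73 over the 5 paralogs, -0.52 over the 8 pseudogenes and -0.66 over 14 genes mutated in Diamond-Blackfan anaemia. Related gene lists lay near the all-gene median of -0.63: -0.71 over 16 other TOP mRNA genes, -0.63 over 26 ribosome assembly genes, -0.53 over 13 RNA polymerase I genes, -0.67 over 14 genes of mTOR and S6 kinase signalling and -0.63 over 60 mitochondrial ribosomal protein genes. None of the genes in these lists passed the limma threshold, against 0.592% of all genes called lower. At an unadjusted p under 0.05 there were 7, 9, 3, 5 and 18 of them in that order. These are shares of 43.8%, 34.6%, 23.1%, 35.7% and 30.0%, which lie around the 31.4% of all genes. Tpt1, a TOP mRNA gene that encodes translationally controlled tumour protein, had 44.5 and 18.4 in the males, against 85 and 66.6 in the females. Larp1, which encodes a protein that binds the TOP motif, had 23.3 and 20.6 in the males, against 25 and 23 in the females. These 2 genes were chosen after their values were seen.

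Whether a peak was called varied between libraries in another way than height did. A peak linked to the gene was called in all 4 libraries for 35 of 78 genes (44.9%), against 35.9% of all genes. By library, a peak was called for 64.1% of the ribosomal protein genes in male 1 and 70.5% in male 2, against 88.5% in female 1 and 74.4% in female 2. The shares of all genes were 61.2% and 49.1% in the males, and 89.7% and 76.7% in the females. Male 2 was thus the library with the wide gap, while the other 3 lay within 3 percentage points of all genes. At canonical starts the share in male 2 was 70.2%, against 53.7% of the other genes with a region at their start. In male 1 it was 66.7%, against 66.8% of those other genes. In the females it was the lower of the 2 shares, at 87.7% against 92.3% in female 1. In female 2 it was 73.7% against 80.3%.

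**Figure D5:**
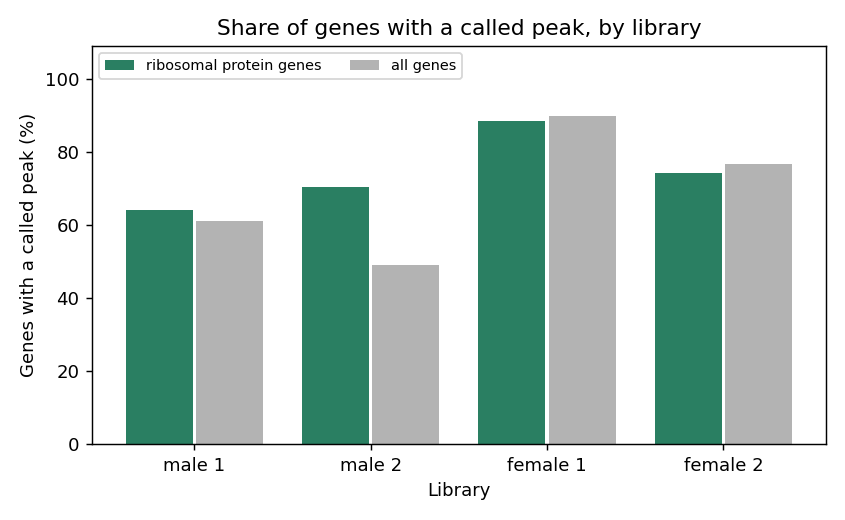
Share of genes with a called peak (%, y axis) in each library (x axis), for the 78 ribosomal protein genes (green) and all 11993 genes (grey). The gap is widest in male 2, at 70.5% against 49.1%.

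Called intervals were longer in male 2. Their median length over all intervals was 171 bp in male 1 and 284 bp in male 2, against 160 bp in female 1 and 165 bp in female 2. At the starts of canonical ribosomal protein genes it was 169 bp in male 1 and 355 bp in male 2, against 192 bp and 164 bp in the females. Male 2 also had the fewest intervals, 4049, and male 1 had 5484, against 10238 and 8022 in the females. The part of these library differences in the results was not tested.

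The pattern of a peak in male 2 and female 1 but in neither other library was found in 8 of the 78 genes (10.3%), against 2.73% of all genes. It was picked from all patterns after the counts were seen, as was the pattern of male 2 alone below. All 8 were canonical: Rpl9, Rpl13a, Rpl19, Rps9, Rps18, Rps23, Rps27 and Rps27a. The nearest peak of Rpl13a lay at -7703 bp, away from its own start. Rps27a, which encodes a fusion of ubiquitin with a small subunit protein, had heights of 17.7 and 17.6 in the males, against 28 and 16.4 in the females. Rpl23, Rps21, Rpl4 and Rpl39 had a peak in male 2 alone (5.13%, against 2.15% of all genes). The nearest peaks of Rps21 and Rpl4 lay at -5987 and 5973 bp, away from their own starts. A call did not follow height within a gene: Rps21 had a peak in male 2 at a height of 11 and none in female 1 at 14. In Rpl26 and Rps20 it was the reverse, as male 2 was the highest library, at 36 and 52.1, with no peak called there. This last combination occurred in 84 of all genes (0.70%). Taking a height of at least 10 in all 4 libraries as open in place of a called peak, 70 of the 78 genes qualified, against 74.4% of all genes.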

How the data were processed

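Nuclei of frozen mouse subcutaneous fat were tagged with Tn5 transposase, per the labels' protocols. The submitters' processing notes name BWA, MACS2 2.1.0 and mm10. The sources used here do not give the read filters, the removal of duplicates or the scaling of heights. The deposited signal is peak height (tag coverage), which the authors averaged where a gene had several regions. The deposited female columns write the same quantity in another number format, with decimal commas. Per-library columns not used here numbered 0.

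A pseudocount of 9, near the low end of the heights, was added before taking log2, so differences of low genes are understated. Sexes were compared over all 11993 genes with limma 3.58.1 in R 4.3.3 (trend, no replicate block), with Benjamini-Hochberg adjusted p under 0.05 as the threshold. The fit was also run on simulated data with larger differences than those of the ribosomal protein genes and no shift common to all genes. That run does not show how well differences of the size seen here are found. Where both males lay outside both females, the sexes did not overlap. RefSeq promoters (GRCm38.p6) were matched by symbol, 48 of 51 within 50 bp of the deposited start. Python 3.11.15, pandas 2.3.3, numpy 2.4.6, scipy 1.17.1 and matplotlib 3.10.9 were used. Alternatives covered the pseudocount, a filter on low heights, scaling, variance settings, a replicate block, a row per set of regions, the members counted, the promoter window and each library left out.

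Genes were named by rule: those past the threshold, the 5 most negative and 5 most positive differences, the 5 highest and 5 lowest mean heights, all paralogs, pseudogenes and other names, and a fixed set of well-known genes; all others by counts, ranges or as examples of a shared position or motif. The members and lists were chosen with earlier results of these data known. Some genes of the set enter the counts and medians but are not reported here by name.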

Additional observations from a re-analysis of the deposited data

How the results depend on the processing

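No call among the 78 genes was made in the main fit, and none was made with pseudocounts of 1 or 36, a filter on low heights, centred or quantile normalized libraries, robust variances or a row per set of regions. Over all genes, the shares called lower in males were 0.592% in the main fit, 0.409% with a pseudocount of 1 and 0.567% with 36. They were 0.55% with robust variances, 0.855% with a row per set of regions, and 0% with the filter, centring or quantile normalization. Without trend 2 of the 78 genes were called lower in males, against 3.47% of all genes. With libraries left out in turn, the number called lower ran from 0 to 35 and higher from 0 to 2, the upper ends without male 1. With the replicate number as a block, 37 genes were called lower, against 57.7% of all genes, and 1 higher, against 0.0584%; the labels' numbers do not pair the samples, and the correlation of their deviations was 0.017. The median difference became 0.042 with centred and 0.059 with quantile normalized libraries, and ran from -0.77 to -0.36 with libraries left out. Relative to all genes it was 0.12 with a pseudocount of 1, 0.0061 with 36, and 0.033 to 0.11 with libraries left out. The height above all genes was 0.20 with a pseudocount of 1, 0.087 with 36, 0.071 with low heights left out (68 of 78 genes passed), and 0.10 with regions at the own start or canonical genes alone. A height of at least 10 in place of a called peak gave 70 genes in all 4 libraries. Of 40 named genes, 18 changed sign with centred and 20 with quantile normalized libraries, none being called. The cause of these changes was not tested. With 2 samples a sex and depth unknown, a missed threshold does not show that the sexes act alike.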
